A study of Drosophila melanogaster with 22 samples.

Results

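The Iroquois complex was described here by its open chromatin, as the FAIRE-seq peaks that overlap the 250 kb of chromosome arm 3L from position 12500000 (dm3), the interval given for ara, caup and mirr. FAIRE-seq recovers the DNA that stays free of protein after fixation, so a peak marks a stretch of accessible DNA. Of 181196 peaks on the 6 chromosome arms in 11 lists, 486 lay in the interval, and all of them were used. They were chosen by position alone.

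The samples were Drosophila melanogaster embryos of strain OregonR and tissues of strain y;cn,bw,sp, so embryos and later tissues cannot be told apart from the strains. Whole embryos came from 3 windows after egg laying, namely 2 to 4 h, 6 to 8 h and 16 to 18 h. Larvae of the third instar gave T3 leg discs, haltere discs, wing discs, eye-antennal discs and the whole CNS (central nervous system), and pharate adults at stage P14 gave T3 legs, halteres and wings. T3 is the third thoracic segment, which bears the hind leg and the haltere, and a pharate adult is a fly that has formed but not yet emerged. No mutation or treatment separated the groups, and every sample was whole tissue with all of its cell types. Each tissue had 1 list of peaks, although the labels name 2 or 3 replicates behind it, so no spread between replicates and no test between tissues could be had. In bulk tissue, fewer cells with an open site and a less open site in each cell cannot be told apart.

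The genes ara (araucan), caup (caupolican) and mirr (mirror) encode homeodomain transcription factors of the TALE class. In imaginal discs, the larval precursors of adult appendages, they pattern the notum, the wing veins and the dorsal eye, and ara and caup set the prepattern on which the proneural genes achaete and scute are switched on. In RefSeq's Release 6 gene table they follow each other in the order ara, caup, mirr, with 4 long non-coding RNA genes between caup and mirr. The ankyrin-repeat gene sowah was added by name, not by its place in this order. No annotation or sequence of dm3 was used here, so peaks were not assigned to starts or introns of these genes and no sequences are shown.

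Peak lists differed in how densely they covered the interval. The embryo lists placed 41 peaks there at 2 to 4 h, 44 peaks at 6 to 8 h and 26 peaks at 16 to 18 h. The leg, haltere and wing discs had 48, 60 and 54 peaks, the eye-antennal disc 26 and the CNS 28. Pharate legs had 38 peaks, halteres 64 and wings 57. Relative to the list's own mean per 250 kb, the highest densities of the full lists were those of 6 to 8 h embryos (1.92 times, 95% exact binomial interval 1.40 to 2.57) and of the wing disc (1.83 times, 1.38 to 2.39). Among 484 windows of 250 kb laid end to end over the arms, the interval ranked 22nd and 23rd in these lists. The haltere disc stood at 1.61 times (1.23 to 2.07) and 2 to 4 h embryos at 1.52 times (1.09 to 2.06). There the interval ranked 50th and 67th.

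In the other 7 lists the binomial interval included the list's mean. The lowest values were 0.868 times in the pharate leg (0.614 to 1.19) and 0.931 times at 16 to 18 h (0.609 to 1.36), where the interval ranked 280th and 259th. Over all lists together it held 486 peaks against a mean of 374 per window, a rank of 116. These intervals cover counting error only and take peaks as independent, although neighbouring peaks can share 1 accessible stretch. This order changed among the better-scoring 50% of each list, where the haltere disc was highest (1.83 times the mean), followed by the wing disc (1.69), the leg disc (1.496) and 6 to 8 h embryos (1.48, from 17 peaks). Embryos at 2 to 4 h were then at 1.11 times (15 peaks) and the pharate leg at 0.548 times.

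**Figure D1:**
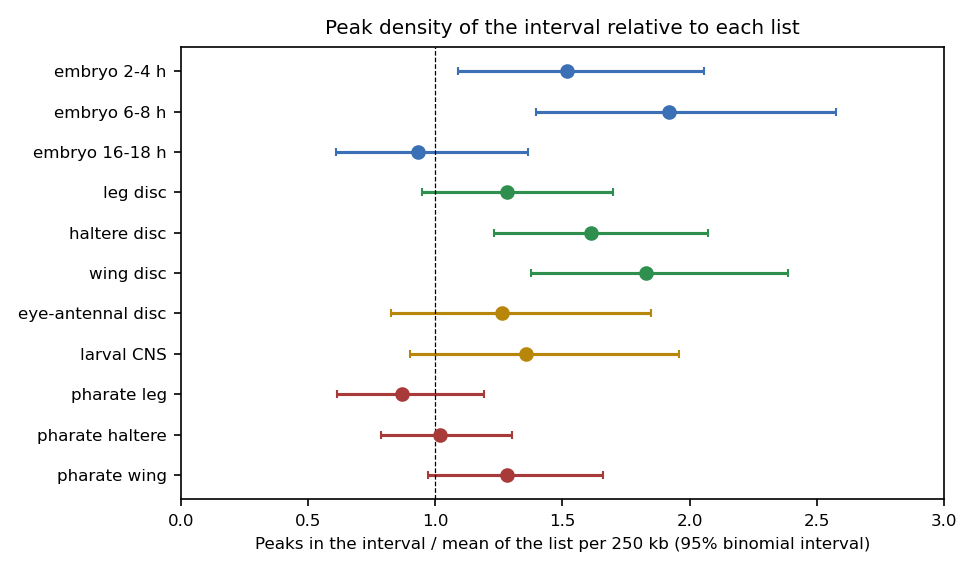
Number of peaks in the interval divided by the mean number per 250 kb of the same list (x axis), for each of the 11 lists (y axis), with 95% exact binomial intervals as bars; blue marks embryos, green appendage discs, ochre eye-antennal disc and CNS, red pharate appendages. The dashed line is the mean of the list, and 6 to 8 h embryos (1.92) and the wing disc (1.83) lie furthest above it.

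Open chromatin was strongest at a single region, 12685220 to 12687239 (2020 bp), which had a peak in every list and the best score of the interval in 9 of 11. The authors gave each peak a score whose scale is not known, so scores are read here as ranks within a list, where the best 1% means the top hundredth by score. Embryo peaks there scored 387, 555 and 254 in order of stage. Leg, haltere and wing discs scored 285, 291 and 238, the eye-antennal disc 90.0 and the CNS 30.9. Pharate legs scored 426, halteres 459 and wings 397, so each list had a high-scoring peak at this place. It ranked in the best 0.119% of wing disc peaks, the best 0.161% of haltere disc peaks and the best 0.341% of eye-antennal disc peaks. The CNS was the list in which it ranked lowest, at 12.9%.

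**Figure D2:**
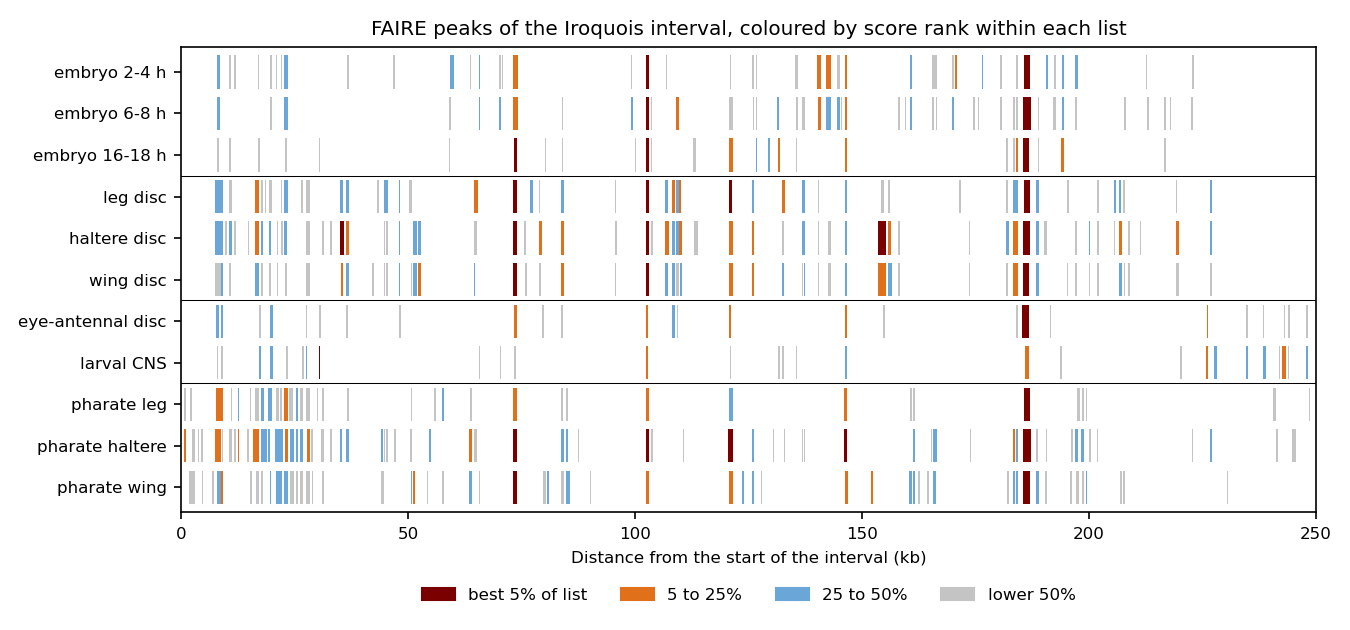
Every peak of the interval, drawn to scale by its distance in kb from the interval's start (x axis) in each of the 11 lists (y axis), with colour for the rank of its score within its own list. Dark bars line up in nearly all lists at about 186 kb, the region that led 9 lists, while many pale bars belong to few lists.

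Of the 3 best-scoring peaks of each list, 30 of 33 fell in regions that were open in all lists. The same share of high-scoring peaks over the arms was not counted. Peaks of the 11 lists were merged where they overlapped, which gave 142 regions, and 6 of these (4.23%, 1.57 to 8.97) had a peak in every list, against 3.94% of regions on the arms. Besides the leading region, they were 12507433 to 12509297, 12573023 to 12574195, 12602300 to 12603028, 12620559 to 12621548 and 12646059 to 12646816. The bases covered by a peak in all 11 lists came to 2289 bp in 6 stretches, the longest of them 792 bp at 12685920 to 12686711.

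The region at 12602300 to 12603028 was the best of the interval at 6 to 8 h, with a score of 576 (best 0.36%). It scored 341 at 2 to 4 h and 225 at 16 to 18 h, and 185, 114 and 93.6 in leg, haltere and wing discs. In the eye-antennal disc it scored 19.2, its lowest rank (23.5%), and in the CNS 29.4. Its pharate scores were 246, 256 and 159 in leg, haltere and wing. So this region was near the top of embryo lists and lower in the eye-antennal disc list, while the leading region was near the top of both.

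The region at 12573023 to 12574195 stood highest in the pharate haltere list, with a score of 418 (best 1.13%), and scored 306 in the pharate wing and 245 in the pharate leg. Leg, haltere and wing discs scored 151, 98.0 and 113, within the best 4% of each list. Embryo scores were 156, 136 and 165 in order of stage, and the CNS score of 13.1 ranked at 52.6%. Of the regions open everywhere, 12620559 to 12621548 differed most in rank between lists. It ranked at 4.44% in the pharate haltere and 4.78% in the leg disc. Its lowest ranks were 67.2% at 6 to 8 h, 69.5% in the CNS and 96.2% at 2 to 4 h. Its embryo scores were 4.46, 13.9 and 108 in order of stage.

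The region at 12646059 to 12646816 was instead lowest at 16 to 18 h among embryos, with scores of 196, 199 and 49.97 in order of stage. Leg, haltere and wing discs scored 28.8, 13.9 and 14.8, ranks of 27.8% to 42.0%. Its pharate scores of 189, 213 and 116 in leg, haltere and wing ranked between 4.89% and 14.3%. The first of these regions along the interval, 12507433 to 12509297, reached its best rank in the pharate leg (score 164, 11.1%) and its lowest at 16 to 18 h (83.8%).

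In steps of 10 kb, every step held a peak in at least 1 list, and 9 of 25 steps held a peak in each of the 11. The fullest step was 12510001 to 12520000 with 44 peaks summed over the lists, and 4.04% of all 10 kb windows on the arms held as many. The emptiest were 12610001 to 12620000 and 12730001 to 12740000 with 5 peaks each, as few as in 32.9% of windows. The longest stretch without a peak in any list ran for 6745 bp, from 12613814 to 12620558. The steps named below were picked after their values were seen.

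Pharate peaks crowded into the first 30 kb. There the pharate leg had 18 of its 38 peaks, the pharate haltere 20 of 64 and the pharate wing 18 of 57, which is 6.00, 6.67 and 6.00 peaks per 10 kb against means of 1.76, 2.52 and 1.79 over the arms. Appendage discs were also dense there, at 3.67 peaks per 10 kb for the leg, 4.33 for the haltere and 3.00 for the wing, against means of 1.506, 1.498 and 1.187. Against their means over the arms, 2 to 4 h embryos (2.67 against 1.09) and the CNS (2.33 against 0.83) were dense there as well, and the eye-antennal disc had 1.67 against 0.829. Embryos at 6 to 8 h, with 1.00 against 0.922, and at 16 to 18 h, with 1.33 against 1.12, were closest to their means. In the following 200 kb the pharate leg was the sparsest against its mean, with 0.90 peaks per 10 kb, while 6 to 8 h embryos had 2.05 against a mean of 0.922 and the wing disc 2.25 against 1.19.

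The last 20 kb, from 12730001, held no peak of any embryo stage and none of the leg, haltere or wing disc. The eye-antennal disc had 5 peaks there and the CNS 6, and the pharate leg, haltere and wing had 2, 2 and 1. Of 12028 overlapping windows of 20 kb on the arms, 145 (1.21%) had an eye-antennal disc or CNS peak with none in embryos and appendage discs, and 1, this stretch, had as many as 11. The limit of 11 was this stretch's own count, so that it met the limit was fixed in advance. The best-ranked of these peaks was that of the CNS within 12742522 to 12743361 (score 22.4, 24.6%). Just before this stretch, 12725864 to 12726218 was open in the same tissues alone, with scores of 36.3 in the CNS (8.86%) and 22.5 in the eye-antennal disc (18.2%).

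In 1 of the 25 steps no larval list had a peak. In this step, 12660001 to 12670000, embryos had 2 peaks at 2 to 4 h and 4 at 6 to 8 h, and the pharate leg, haltere and wing had 2, 3 and 5. Windows of 10 kb with embryo and pharate peaks but no larval peak made up 5.92% of the arms, and this was the 1 window of 12034 with at least 6 embryo and 10 pharate peaks. Those limits were the step's own counts, chosen after they were seen, so they do not measure how unusual the step is. The step 12700001 to 12710000 had 4, 5 and 5 peaks in leg, haltere and wing discs and none in the eye-antennal disc and CNS. It also held 1 peak of 6 to 8 h embryos and 2 each of the pharate haltere and wing, and the other embryo stages and the pharate leg had none. Of all 10 kb windows, 18.1% had appendage disc peaks and none in the eye-antennal disc and CNS. With at least 14 appendage disc peaks, this step's own count, it was 0.224%.

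**Figure D3:**
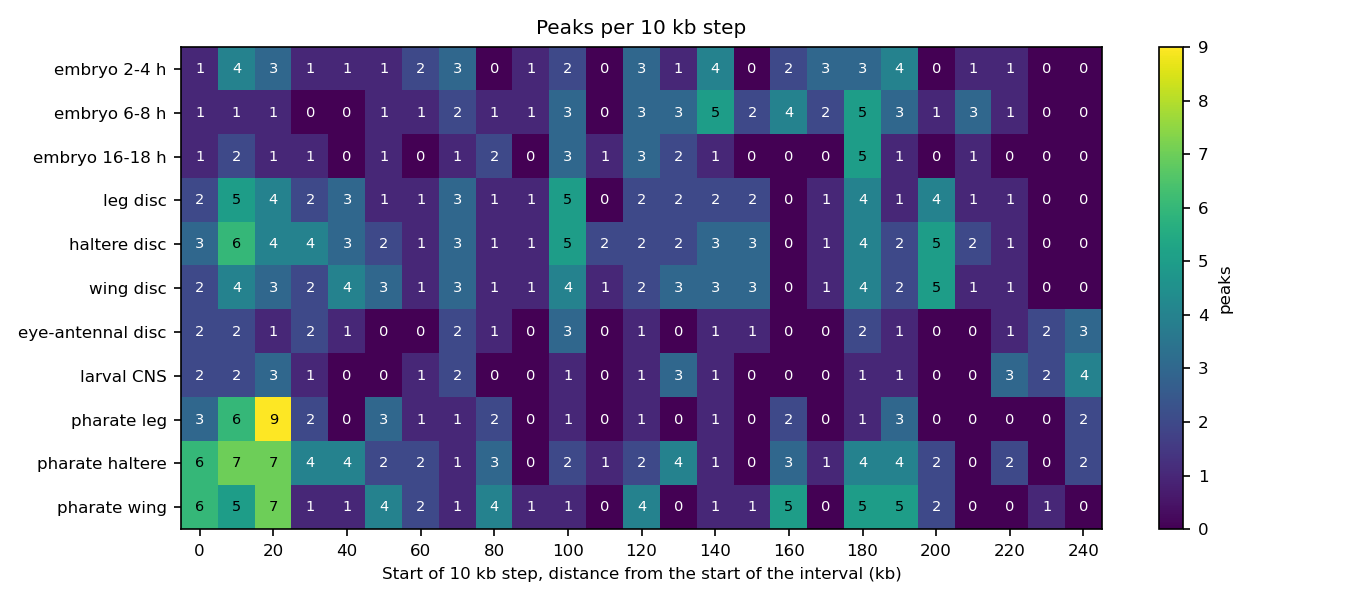
Number of peaks per 10 kb step (colour and digit), with the start of each step in kb from the interval's start (x axis) and the 11 lists (y axis). The first 30 kb are full in the pharate lists, the step at 160 kb is empty in all larval lists, and the last 20 kb are empty in embryos and appendage discs.

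Most regions belonged to few tissues. Of the 142 regions, 117 (82.4%) had a peak in 4 or fewer lists, against 76.1% of regions on the arms, and 41 (28.9%, 21.6 to 37.1) in 1 list, against 37.4%. Regions of embryos alone numbered 19 (13.4%, 8.25 to 20.1, arms 12.8%), of larval tissues alone 29 (20.4%, 14.1 to 28.0, arms 13.8%) and of pharate appendages alone 37 (26.1%, 19.1 to 34.1, arms 31.7%). The larval share was the only one of these 3 whose interval did not reach the share of the arms. Within it, 16 regions were open in appendage discs alone (11.3%, 6.58 to 17.7, arms 5.93%) and 10 in the eye-antennal disc or CNS alone (7.04%, 3.43 to 12.6, arms 6.67%).

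The best-ranked region of larval tissues alone was 12653439 to 12655194 (1756 bp), and the wing and haltere discs set it apart from the leg disc. Haltere disc peaks there scored up to 117 (2.47%) and those of the wing disc 77.8 (5.66%), against 8.18 in the leg disc (67.3%) and 3.95 in the eye-antennal disc (97.6%). Its neighbour at 12655602 to 12656480 had the same order, with ranks of 21.5%, 29.3% and 69.0% in haltere, wing and leg discs. Both lay outside all embryo, CNS and pharate lists. The haltere disc also led at 12534951 to 12535879, with a score of 77.9 (4.73%) against 28.9 in the wing disc (22.7%) and 20.8 in the leg disc (35.4%). That region had no embryo peak either. Regions with a peak in each appendage disc and none in embryos numbered 16 (11.3%, 6.58 to 17.7), against 7.57% on the arms. At the haltere-led region a pharate haltere peak scored 21.6 (37.6%).

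Single-list regions were of lower rank. The best were 12670499 to 12670969, open at 2 to 4 h with a score of 78.4 (23.2%), and 12652012 to 12652366, open in the pharate wing with a score of 64.7 (23.9%). Regions of several embryo stages included 12558975 to 12560038, with scores of 64.9, 21.6 and 12.98 in order of stage. Among regions of pharate appendages alone, 12500539 to 12501145 scored 55.8 in the haltere (17.1%) and 10.1 in the leg, and 12512390 to 12512783 scored 49.98 in the haltere (18.8%) and 45.8 in the leg (34.1%). Neither had a pharate wing peak.

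Leg, haltere and wing discs were compared to ask which parts of the complex differ between serially related appendages. Their lists merged into 68 regions, of which 38 (55.9%, 43.3 to 67.9) were open in all 3 discs, against 54.0% on the arms. A further 10 regions were open in haltere and wing discs without the leg disc (14.7%, 7.28 to 25.4), against 3.62% on the arms. The leg disc with the haltere disc, without the wing disc, had 2 regions (2.94%, 0.358 to 10.2), against 12.2%, and the leg disc with the wing disc 3 (4.41%, arms 3.62%). The haltere disc alone had 9 regions (13.2%, arms 11.9%), the leg disc alone 5 (7.35%, arms 12.6%) and the wing disc alone 1 (1.47%, arms 2.11%).

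The 10 haltere and wing regions, a pattern picked after its count was seen, lay between 12520999 and 12708963 and were mostly of low score. In the haltere disc their scores ran from 4.08 to 20.4 (median rank 75.2%), and in the wing disc from 3.55 to 26.8 (median rank 74.9%). The strongest were neighbours, at 12551133 to 12552022 (19.95 and 16.4 in haltere and wing disc) and 12552102 to 12552800 (20.4 and 26.8). None of the 10 overlapped an eye-antennal disc, CNS or 16 to 18 h embryo peak, 4 overlapped an embryo peak of the earlier stages and 5 a pharate peak. How often such regions of the arms overlap these lists was not counted. Among the better-scoring 50% of each list the pattern was left with 4 of 39 regions (10.3%, 2.87 to 24.2), so that the interval included the 3.90% of the arms, and among equal numbers of best-scoring peaks with 7 of 43 (16.3%, 6.81 to 30.7), against 6.64%.

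Peaks were also counted list by list, over 30 ordered pairs of lists in all, with intervals not adjusted for their number. Of wing disc peaks in the interval, 50 of 54 (92.6%, 82.1 to 97.9) overlapped a haltere disc peak, against 91.0% on the arms, and 43 of 54 (79.6%, 66.5 to 89.4) a leg disc peak, against 91.1%. Of haltere disc peaks, 41 of 60 (68.3%, 55.0 to 79.7) overlapped a leg disc peak, against 81.5%, and 49 (81.7%, 69.6 to 90.5) a wing disc peak, against 70.8%. Of leg disc peaks, 41 of 48 (85.4%, 72.2 to 93.9) overlapped a wing disc peak, against 69.7%, and 40 (83.3%, 69.8 to 92.5) a haltere disc peak, against 80.7%. Leg disc peaks were thus found in the wing disc more often than on the arms, and wing and haltere disc peaks in the leg disc less often, beyond counting error in each case. With equal numbers of peaks these 3 shares were 86.2%, 72.2% and 68.6%, against 80.9%, 83.2% and 76.5%, and their intervals then included the arms, as they did in the better-scoring 50%.

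In pharate appendages the wing stood apart. The 3 lists merged into 88 regions, of which 23 (26.1%, 17.3 to 36.6) were open in all, against 34.3% on the arms. The pharate wing alone had 16 regions (18.2%, 10.8 to 27.8), against 6.53% on the arms. The haltere alone had 25 (28.4%, 19.3 to 39.0, arms 31.6%) and the leg alone 4 (4.55%, 1.25 to 11.2, arms 6.37%). The leg shared 4 regions with the haltere alone (4.55%, arms 6.95%) and 5 with the wing alone (5.68%, arms 7.26%). Haltere and wing without the leg shared 11 (12.5%, 6.41 to 21.3, arms 6.92%). Of pharate wing peaks, 30 of 57 (52.6%, 39.0 to 66.0) overlapped a pharate leg peak, against 75.3%, and 36 (63.2%, 49.3 to 75.6) a pharate haltere peak, against 75.6%.

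The 16 pharate wing regions, also picked after their count was seen, scored between 4.67 and 69.3 (median rank 68.2%) and were spread over the interval from 12506710 to 12730605. The highest scores were those at 12551064 to 12551422 (69.3), 12652012 to 12652366 (64.7) and 12580674 to 12580995 (45.8). Of the 16, 4 overlapped a peak of the wing disc, 3 one of the leg disc, 3 one of the haltere disc and 4 a peak of some embryo stage. The same overlaps were not counted over the arms. The pattern had 8 of 41 regions (19.5%, 8.82 to 34.9) among the better-scoring 50% of each list, against 7.48% on the arms, and 9 of 32 (28.1%, 13.7 to 46.7) among equal numbers of peaks, against 10.3%.

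Of pharate leg peaks, 30 of 38 (78.9%, 62.7 to 90.4) overlapped a pharate wing peak, against 75.4%, and 29 (76.3%, 59.8 to 88.6) a pharate haltere peak, against 75.8%. Of pharate haltere peaks, 28 of 64 (43.8%, 31.4 to 56.7) overlapped a pharate leg peak and 35 (54.7%, 41.7 to 67.2) a pharate wing peak, against 52.8% and 52.7%. These 4 shares were within counting error of the arms, whereas that of pharate wing peaks in the pharate leg was below the arms also over equal numbers of peaks (39.1%, 19.7 to 61.5, arms 78.3%). For pharate wing peaks in the pharate haltere the interval then included the arms (56.5%, 34.5 to 76.8, arms 65.4%).

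Fewer disc peaks of the complex were still open at the pharate stage than on the arms in the leg and the wing. Of leg disc peaks, 18 of 48 (37.5%, 23.95 to 52.6) overlapped a pharate leg peak, against 57.6% on the arms. Of wing disc peaks, 23 of 54 (42.6%, 29.2 to 56.8) overlapped a pharate wing peak, against 64.8%. For the haltere it was 37 of 60 (61.7%, 48.2 to 73.9), against 71.7%, within counting error. In the other direction 38 of 64 pharate haltere peaks (59.4%, 46.4 to 71.5) overlapped a haltere disc peak, against 42.8%, while the pharate leg (44.7%, 28.6 to 61.7, arms 49.3%) and the pharate wing (43.9%, 30.7 to 57.6, arms 42.7%) were close to the arms. With lists limited to the same number of peaks, the leg disc share was 31.0% (15.3 to 50.8, arms 53.6%) and the wing disc share 30.6% (16.3 to 48.1, arms 53.8%), again below the arms. The share of haltere disc peaks found in the pharate haltere was then 34.3%, within counting error of 49.1%, and that of pharate haltere peaks in the haltere disc 57.1%, within counting error of 49.0%.

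**Figure D4:**
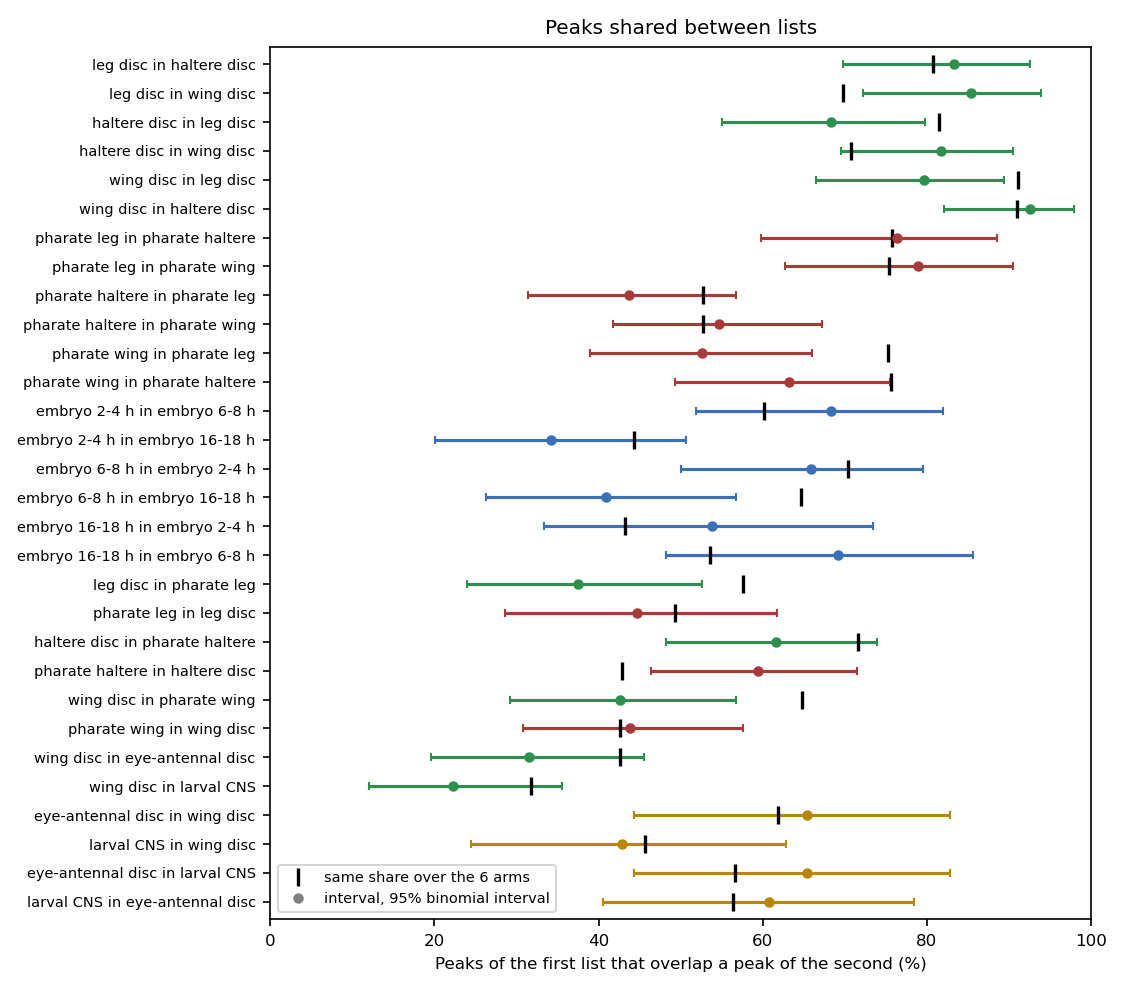
Share of the peaks of the first-named list that overlap a peak of the second (x axis, percent) for 30 ordered pairs of lists (y axis): points with 95% exact binomial bars are peaks in the interval, black ticks the same share over the 6 arms. The tick lies to the right of the bar for wing and haltere disc peaks in the leg disc, pharate wing peaks in the pharate leg and, narrowly, in the pharate haltere, 6 to 8 h peaks at 16 to 18 h, and leg and wing disc peaks in their own pharate appendage; it lies to the left for leg disc peaks in the wing disc and pharate haltere peaks in the haltere disc.

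Embryo stages were compared to follow the complex through development. The 3 lists merged into 62 regions, of which 12 (19.4%, 10.4 to 31.4) were open at all stages, against 23.4% on the arms. Another 16 regions (25.8%, 15.5 to 38.5) were open at 2 to 4 and 6 to 8 h without 16 to 18 h, against 11.7% on the arms. The 16 to 18 h stage alone had 6 (9.68%, 3.63 to 19.9), against 26.3%, the 6 to 8 h stage alone 9 (14.5%, 6.86 to 25.8), against 5.94%, and the 2 to 4 h stage alone 11 (17.7%, 9.20 to 29.5), against 21.4%. Of 6 to 8 h peaks, 18 of 44 (40.9%, 26.3 to 56.8) overlapped a 16 to 18 h peak, against 64.7%, and of 2 to 4 h peaks 14 of 41 (34.1%, 20.1 to 50.6), against 44.3%. Between the early stages the shares were 68.3% of 2 to 4 h peaks at 6 to 8 h (arms 60.2%) and 65.9% of 6 to 8 h peaks at 2 to 4 h (arms 70.4%), within counting error. Among the better-scoring 50%, the early pattern had 6 of 25 regions (9.36 to 45.1%, arms 15.1%) and the share of 6 to 8 h peaks at 16 to 18 h was 35.3% (14.2 to 61.7, arms 58.8%), so both intervals included the arms.

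The strongest of the early regions lay together near 12640000. The region at 12642147 to 12643161 scored 168 at 2 to 4 h (11.3%) and 46.2 at 6 to 8 h (30.0%), and that at 12640174 to 12640894 scored 96.1 (19.8%) and 83.6 (17.7%). Haltere and wing disc peaks over these stretches scored between 6.43 and 8.07, below the median of their lists. Of the 16 early regions, 5 overlapped a peak of an appendage disc and 7 a pharate peak, overlaps that were not counted over the arms. The peak of 6 to 8 h embryos at 12608981 to 12609660, without a peak at the other embryo stages, scored 143 (9.44%) and overlapped peaks of 23.1, 16.9 and 11.3 in leg, haltere and wing discs.

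Eye-antennal disc and CNS were the larval tissues outside the appendages. Of the 26 eye-antennal disc peaks, 17 (65.4%, 44.3 to 82.8) overlapped a CNS peak, against 56.6% on the arms, and as many a wing disc peak, against 61.9%. The CNS had 28 peaks, of which 17 (60.7%, 40.6 to 78.5) touched a peak of the eye-antennal disc, against 56.3%, and 12 (42.9%, 24.5 to 62.8) a wing disc peak, against 45.6%. The best CNS peak was at 12530271 to 12530664, with a score of 48.5 (3.96%), and it had weaker companions in the eye-antennal disc (10.7, 53.9%) and at 16 to 18 h (10.5, 80.3%). Of wing disc peaks, 17 of 54 (31.5%, 19.5 to 45.6) touched a peak of the eye-antennal disc, against 42.6%, and 12 (22.2%, 12.0 to 35.6) a CNS peak, against 31.8%. All of these shares were within counting error of the arms.

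Transcript levels of the genes were set beside the peaks, as the authors' FPKM (fragments mapped, scaled by transcript length and by library), with 1 value per tissue and no value for the eye-antennal disc and CNS. In the discs, mirr was at 3.89, 129 and 184 FPKM in leg, haltere and wing. The leading region of the interval ranked in the best 0.53%, 0.161% and 0.119% of leg, haltere and wing disc peaks. Its scores in these lists, 285, 291 and 238, were lowest in the wing disc. Among pharate appendages the region ranked best in the haltere (0.78%), while mirr was higher in the wing (43.9 FPKM) than in the haltere (20.4). The leading region was not assigned to a gene, and a link to mirr levels was not tested. For ara the discs were at 149.6, 164 and 258 and for caup at 94.0, 178 and 268, in the order leg, haltere and wing. All 3 genes were highest in the wing disc.

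In pharate leg, haltere and wing, ara was at 41.6, 9.09 and 159, caup at 34.0, 7.02 and 140.2, and mirr at 4.99, 20.4 and 43.9. The wing was again the highest for each gene, and ara and caup were lowest in the haltere. In embryos, mirr was at 38.6, 201 and 99.7, caup at 3.71, 120.1 and 66.5, and ara at 51.1 and 76.4 at the later stages and listed at 0 at 2 to 4 h. A 0 in these tables can be a failed estimate, since the muscle myosin gene Mhc was also listed at 0 in 16 to 18 h embryos. The peak counts in the interval at these stages were 41, 44 and 26. The non-coding RNA gene CR32111, between caup and mirr, was at 7.80, 56.0 and 83.5 in leg, haltere and wing discs and at 23.1, 7.69 and 41.0 in the pharate appendages.

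**Figure D5:**
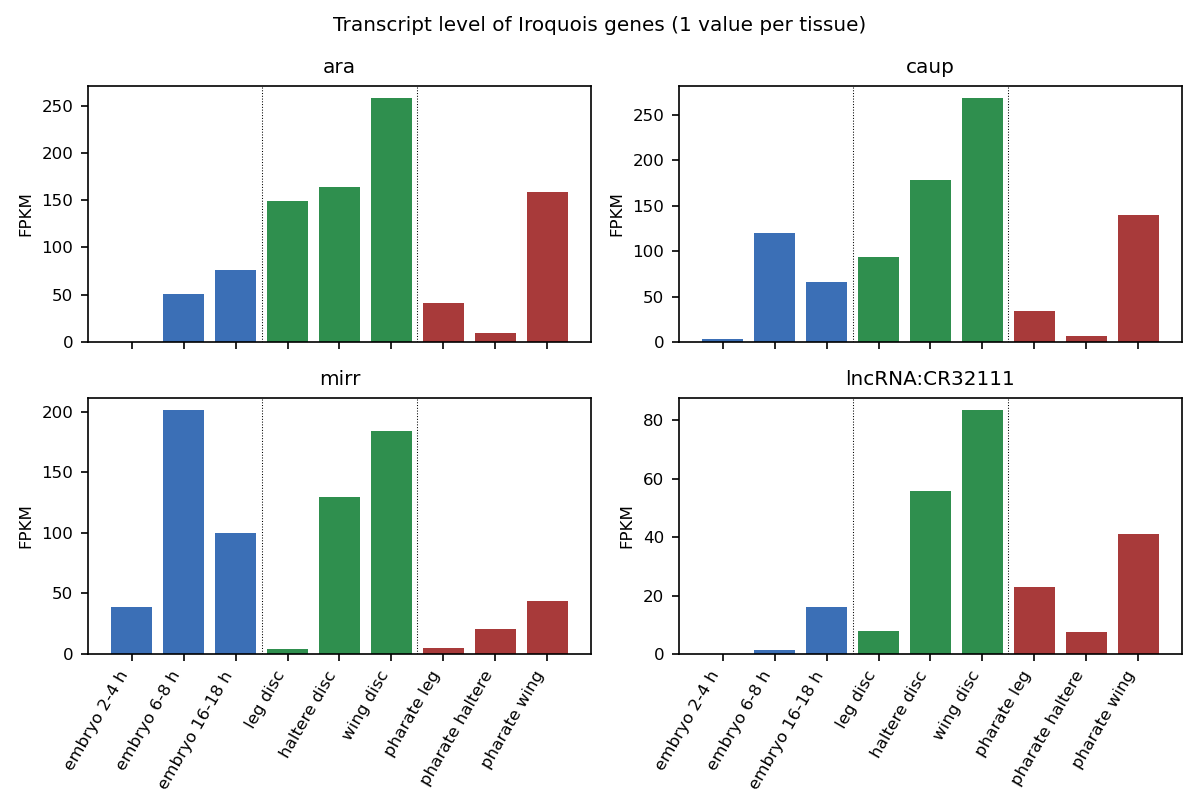
Transcript level in FPKM (y axis, from 0) of ara, caup, mirr and the non-coding RNA gene CR32111 in 9 tissues or stages (x axis); each bar is the authors' single value, with dotted lines between separate tables. In the wing disc all 4 genes are above the haltere and leg discs, and mirr is at 3.89 in the leg disc.

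The sequencing depth behind each list is unknown, and the lists ran from 9975 peaks on the arms in the eye-antennal disc to 30374 in the pharate haltere. Median widths of peaks in the interval were between 364 bp at 16 to 18 h and 545.5 bp in the haltere disc. Their median scores ranked between 41.3% in the leg disc and 73.1% at 16 to 18 h of their own lists, so the interval was not made of top-scoring peaks. Marker genes of the RNA samples followed their labels in part. Ubx, the Hox gene of the third thoracic segment, was at 319 and 332 FPKM in leg and haltere discs and 6.06 in the wing disc, and zen, an early embryonic gene, at 555 at 2 to 4 h and 1.57 at 16 to 18 h. The wing markers vg and nub were highest in the wing, and the leg markers Sp1 and btd in the leg, among discs and among pharate appendages. For bcd, a marker of 2 to 4 h, embryo values were 282, 133 and 53.0 in order of stage. Mhc and elav had been taken as markers of 16 to 18 h, but elav was highest at 6 to 8 h (65.9, 469 and 208). Mhc was also listed at 0 in all 3 pharate appendages and at 222, 594 and 57.0 FPKM in leg, haltere and wing discs.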

How the data were processed

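The authors deposited 1 peak list per FAIRE sample, with a score per peak. Per the submitters' processing notes, tools included CASAVA 1.7, Bowtie 0.12.3 and MACS2 with build dm3, without the step each served. The score's scale, the peak threshold, the control and how replicates were combined are not given in the sources used here. The authors gave transcript levels as FPKM, in 3 tables whose scaling is not given in the sources used here, and the notes also name TopHat 1.1.4 and Cuffdiff.

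Coordinates are counted from 1. Peaks of 6 arms were used, which leaves out 455 eye-antennal disc and 211 CNS peaks elsewhere. Peaks overlapped at 1 shared bp or more, overlapping peaks were chained into regions, and a peak was put in a 10 kb step by its midpoint. Intervals given with shares are 95% binomial, by Clopper and Pearson's exact method, and reflect counting error alone. The functions for overlaps, merged regions and score ranks were tested on simulated peaks, and the placing of peaks in steps was not. Log2 ratios of FPKM used a pseudocount of 1 and a minimum of 5 FPKM in either column. For the named genes, ratios with a value of 0 in either column were left out. Python 3.11.15, NumPy 2.4.6 and SciPy 1.17.1 were used.

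The interval, the gene list and the comparisons were chosen with earlier results of these data known. Named regions were the 3 best-scoring peaks of each list, the 2 best-ranked regions of each class, and the fullest and emptiest steps. Regions open in all lists, patterns within a stage and stretches of the interval were added after their values were seen. The alternatives tried were stricter score thresholds, equal numbers of peaks, peak centres, a stricter overlap, other steps and a shorter interval. The 2 genomic inputs were not used here.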

Additional observations from a re-analysis of the deposited data

Results flagged for a closer look

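For ara, caup, CR32111 and sowah, an appendage was above another in the disc and below it at the pharate stage, or the reverse. Ratios of any size were taken, and how many of all genes do so was not counted. With 1 value per tissue the difference between stages was not tested, and disc and pharate values came from separate tables, within each of which the ratios were taken. The log2 ratio of haltere to leg FPKM was 0.92 in the disc and -2.13 at the pharate stage for caup, 0.13 and -2.08 for ara, and 2.69 and -1.47 for CR32111. For sowah the ratios were smaller, -0.24 and 0.15 for haltere to leg, -0.26 and 0.99 for wing to leg, and -0.022 and 0.83 for wing to haltere.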

How the results depend on the processing

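No paired analysis was possible because each tissue had 1 list or 1 column. The density of the interval moved outside the full list's binomial interval in 1 list, the pharate leg, to 0.548 times the mean among the better-scoring 50% of peaks and 0.534 times among equal numbers. In the better-scoring 50%, 80 regions were left, 3 of them in every list and 19 of pharate appendages alone. Equal numbers left 15 pharate regions, and central 200 bp of peaks gave 65 regions of 1 list. Patterns added after seeing the data fell in the better-scoring 50% to 4 regions of haltere and wing discs, 8 of the pharate wing (9 with equal numbers) and 6 of early embryos. Steps of 5 kb left 30% without an embryo peak, and steps of 25 kb left 0% without an appendage disc, eye-antennal disc or CNS, larval or pharate peak. Shares outside the reported interval were, in the better-scoring 50%, 67.6% of haltere disc peaks in the wing disc, 91.7% of pharate leg in pharate haltere, 36% of pharate wing in pharate leg and 38.5% of CNS in eye-antennal disc. With equal numbers they were 25.6% of 6 to 8 h peaks at 16 to 18 h, 72.7% of pharate leg in leg disc, 34.3% of haltere disc in pharate haltere and 47.2% of wing disc in eye-antennal disc. The cause was not tested, beyond the loss of peaks that a stricter threshold makes by itself. Of 41 transcript contrasts, 22 were 2-fold apart, and 20 with a pseudocount of 5 FPKM. The 41 leave out contrasts in which a gene was listed at 0, which the shares over all genes keep. The counts and shares are therefore not like for like. Over all genes, the share 2-fold apart in a contrast was lowest in wing against leg discs (14.2%). It was highest in 16 to 18 h against 2 to 4 h embryos (74.7%). Neither another pseudocount nor the lack of a minimum can turn the direction of a ratio.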
